A study of Rattus norvegicus with 40 samples.

Results

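The response of the liver of Line A (LnA) rats to TCDD (2,3,7,8-tetrachlorodibenzo-p-dioxin, the most toxic of the dioxins) was measured 19 h after a single oral dose. LnA is a dioxin-resistant line bred from crosses of Long-Evans (L-E) and Han/Wistar (H/W) rats, and all its rats, treated or not, carry the H/W form of the aryl hydrocarbon receptor (AHR), which lacks a piece of the transactivation domain. The rats were males aged 10 to 12 weeks. They received 100 ug/kg TCDD in corn oil or corn oil alone by gavage, 4 rats per group, with 1 array (Affymetrix RAE230A) for each rat. These 8 arrays are all those that the labels give as LnA liver at 19 h, out of 40 arrays of the series. The other arrays used here are those of 19 h from Line C (LnC) and L-E rats, which have the wild-type AHR and are dioxin-sensitive, and from H/W rats, again 4 rats with TCDD and 4 with corn oil in each. A line is 1 genetic background, and the rats of a treatment group shared a cage, so cage and treatment cannot be told apart. Values are log2 signals as deposited, so a difference of 1 is a doubling. Each of 10411 genes with a single symbol was represented by 1 probe set, chosen for its highest mean signal in the 8 arrays.

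The AHR is a cytosolic protein held by chaperones until a ligand such as TCDD binds it. It then enters the nucleus, pairs with ARNT and binds short DNA elements with the core GCGTG in the control regions of genes such as Cyp1a1. The genes switched on this way include cytochromes P450 of family 1 and enzymes that handle their products (the AHR battery), together with Tiparp and Ahrr, which restrain the receptor. Liver is a main target of dioxin, and most of its RNA comes from hepatocytes, which carry out the oxidation, conjugation, bile acid, lipid, glucose and amino acid metabolism that the gene groups described here cover.

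Of the 8 AHR battery genes that were called higher with TCDD (values below), 6 are in the RefSeq promoter table of assembly GRCr8, and those of the 3 with the largest rise among them are shown. They differ in the GCGTG core. Aldh3a1 and Cyp1a1 are the other called genes. Each line gives the 250 bases before the start of the gene, 5′ to 3′ on the strand of the gene, with GCGTG or its reverse complement CACGC in capitals.
Cyp1b1: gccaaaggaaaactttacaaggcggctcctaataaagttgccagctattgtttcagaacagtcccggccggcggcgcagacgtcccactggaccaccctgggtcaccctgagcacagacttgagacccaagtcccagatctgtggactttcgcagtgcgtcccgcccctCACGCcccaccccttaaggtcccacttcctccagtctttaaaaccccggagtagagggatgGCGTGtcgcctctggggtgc
Nqo1: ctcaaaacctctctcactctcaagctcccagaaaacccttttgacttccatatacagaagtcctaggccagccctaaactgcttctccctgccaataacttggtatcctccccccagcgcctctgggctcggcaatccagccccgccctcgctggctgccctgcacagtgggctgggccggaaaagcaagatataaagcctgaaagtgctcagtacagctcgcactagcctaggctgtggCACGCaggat
Gsta3: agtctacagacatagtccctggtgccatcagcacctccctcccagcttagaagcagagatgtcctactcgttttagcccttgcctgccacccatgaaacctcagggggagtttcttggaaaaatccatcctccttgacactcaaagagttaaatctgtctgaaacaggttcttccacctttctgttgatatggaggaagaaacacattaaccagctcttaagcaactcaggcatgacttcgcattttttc
The Cyp1b1 stretch is chr6:21094315-21094564 (plus strand) and holds the core 2 times, with its first base 81 and 20 bases before the start. That of Nqo1, chr19:52220268-52220517 (minus strand), holds it once, 10 bases before the start, and that of Gsta3, chr9:31154739-31154988 (plus strand), does not hold it. In the window from 250 bases before to 50 bases after the start (300 bases, both strands), 32 of the 66 genes called higher that match the table by symbol hold the core (48.5%), as do 12 of 28 called lower (42.9%), 4045 of all 8630 tested genes that match (46.9%) and 9939 of all 33469 promoters of the table (29.7%). A match of 5 letters is a description of the window and says nothing of binding.

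TCDD altered 113 genes in LnA liver at an adjusted p under 0.01 (1.09% of the 10411 tested), of which 76 rose (0.73%) and 37 fell (0.355%). Adjusted p is from limma, in which the variance of a gene is moderated by those of all genes, with Benjamini-Hochberg adjustment over all 10411 genes. The middle gene among those that rose had a log2 fold change of 0.869 and among those that fell of -0.801, while the median over all genes was -0.01. Of the called genes, 33 rose and 9 fell by more than 1 on the log2 scale, and 22 moved by less than 0.5. The 4 TCDD arrays and the 4 corn oil arrays did not overlap in any of the 113. Selection at this threshold makes that likely, so it adds no support to the calls. Over all genes the groups did not overlap in 8.92% (502 with TCDD higher and 427 lower). At an unadjusted p under 0.05 there were 1483 genes (14.2% of all tested), 825 higher (7.92%) and 658 lower (6.32%), and counts of list members at that level are to be read against these shares. Counts of called list members are to be read against the shares of called genes given above.

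**Figure D1:**
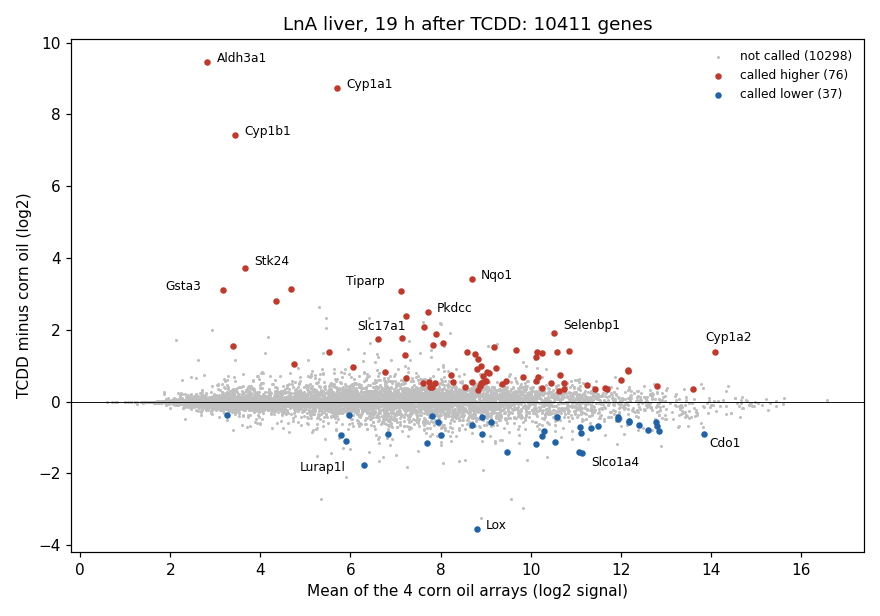
Difference between the means of the TCDD and corn oil arrays (log2, vertical axis) against the mean of the 4 corn oil arrays (log2 signal, horizontal axis) for 10411 genes in LnA liver. Red points are the 76 genes called higher and blue points the 37 called lower, and Aldh3a1, Cyp1a1 and Cyp1b1 stand above all other genes.

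The calls rest on small groups. When replicate number entered the fit as a block, 11 genes passed, all higher with TCDD and 10 of the 113 among them, and 100 of the 113 had an adjusted p under 0.05 (at most 0.0669 over the 113). Without 1 array, 26 to 60 genes passed, and 23 of the 113 passed in each of the 8 fits. Below, a call is said to need an array where adjusted p was 0.01 or above without it. The 4 corn oil arrays and TCDD replicate 4 were washed on fluidics station 1 and TCDD replicates 1 to 3 on station 2. With the station as a block the effect rests on TCDD replicate 4 against the corn oil arrays, and 14 genes passed, 8 of the 113 among them. The log2 difference of that array from the corn oil mean had a median of 0.988 times the log2 fold change of the 113 genes, which contains it. A call favours genes with little spread among the TCDD arrays, so this ratio does not separate station from treatment. Aldh3a1, Cyp1b1, Pkdcc, Ceacam1 and Mospd3 passed in each of 18 alternative fits at 0.01.

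The AHR battery was induced in LnA liver. All 11 members measured (of 16 listed) had higher signals with TCDD with no overlap of the groups, and 8 were called, for a median log2 fold change of 3.08 over the 11. With the replicate block 2 of these calls were left, Aldh3a1 and Cyp1b1. Aldh3a1 encodes an aldehyde dehydrogenase that is hardly expressed in untreated liver. Its log2 signal was 2.72, 2.63, 2.62 and 3.32 in the corn oil arrays and 12.69, 12.26, 12.02 and 12.13 in the TCDD arrays (log2 fold change 9.45 with a standard error of 0.20, adjusted p = 1.57e-06, 0.00182 with the block). Cyp1b1, a P450 found mostly outside the liver, had 3.44, 3.43, 3.35 and 3.54 with corn oil and 11.56, 10.47, 10.60 and 10.88 with TCDD (log2 fold change 7.43 with a standard error of 0.22, adjusted p = 9.59e-06, 0.00214 with the block). The corn oil signals of both lay under the median signal of every array (3.58 in the lowest), as did those of Gsta3. Signals this low do not measure how little mRNA was present, so the fold changes of these 3 genes are not exact sizes of the change. Neither call needed any array.

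Cyp1a1, the P450 most used as a sign of AHR activation, was at 2.38, 5.20, 7.39 and 7.81 in the corn oil rats and at 14.41, 14.43, 14.57 and 14.27 in the TCDD rats (log2 fold change 8.73 with a standard error of 1.11, adjusted p = 0.0083, 0.0401 with the block). The corn oil rats differed from each other by more than 5 log2 units, whereas the TCDD rats lay close together. Cyp1a2, the related P450 that is abundant in hepatocytes without induction, went from 14.18, 13.76, 14.20 and 14.22 to 15.55, 15.44, 15.52 and 15.37 (log2 fold change 1.38 with a standard error of 0.11, adjusted p = 0.00141, 0.0137 with the block), a 2.6-fold change. Its call did not need any array. That of Cyp1a1 needed every array but corn oil replicate 1 (up to 0.0288 without 1).

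Nqo1, a quinone reductase, had 9.83, 8.85, 8.04 and 8.07 with corn oil and 12.14, 11.93, 12.21 and 12.12 with TCDD (log2 fold change 3.40 with a standard error of 0.38, adjusted p = 0.00546, 0.033 with the block). Corn oil replicate 1 was the highest of the controls, and the call needed every array but corn oil replicate 1 (up to 0.0204 without 1). Tiparp, an ADP-ribosyltransferase that marks the AHR for removal, rose from 7.21, 6.29, 7.38 and 7.61 to 9.47, 9.88, 10.72 and 10.74 (log2 fold change 3.08 with a standard error of 0.38, adjusted p = 0.00777, 0.0195 with the block). Nfe2l2, which encodes the antioxidant regulator NRF2, rose from 10.14, 10.10, 10.42 and 9.91 to 11.17, 11.37, 11.93 and 11.62 (log2 fold change 1.38 with a standard error of 0.18, adjusted p = 0.00821, 0.0251 with the block). The calls of Tiparp and of Nfe2l2 needed every array (adjusted p up to 0.0276 and 0.0293 without 1). Gsta3, a glutathione S-transferase, stood at 3.49, 3.06, 3.04 and 3.12 with corn oil, under the median of every array, and at 6.83, 7.14, 5.76 and 5.41 with TCDD (log2 fold change 3.11 with a standard error of 0.38, adjusted p = 0.00773, 0.031 with the block), with its call needing every array but TCDD replicate 4 (up to 0.0308 without 1). The members that were not called were Lrat, which stores vitamin A as esters (0.76, adjusted p = 0.0553), Pmm1, a phosphomannomutase (0.67, adjusted p = 0.0242), and Xdh, xanthine dehydrogenase (0.48, adjusted p = 0.11).

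**Figure D2:**
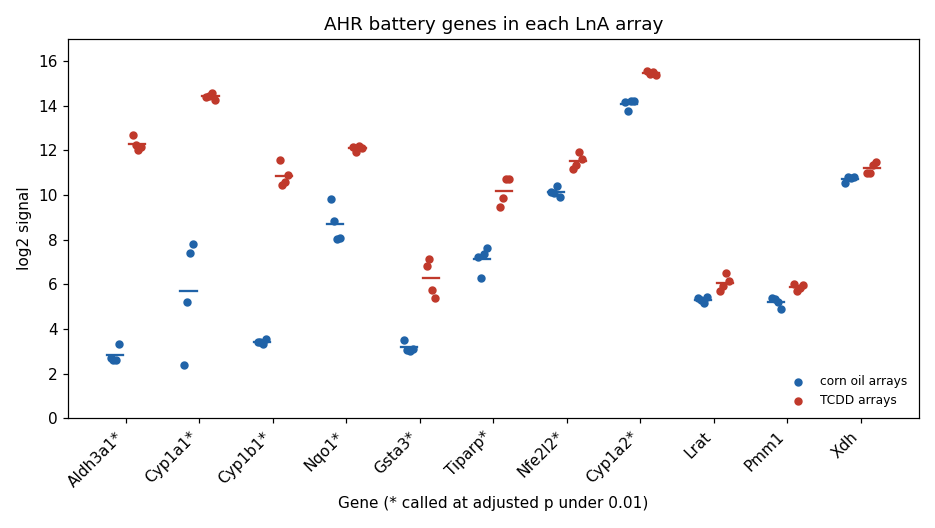
Log2 signal (vertical axis) of the 11 AHR battery genes measured, in each corn oil array (blue) and TCDD array (red) of LnA liver, with a line at each group mean. The groups do not overlap in any of the 11, and the corn oil arrays of Cyp1a1 are spread from 2.38 to 7.81.

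Of 14 members of the AHR complex and its coregulators measured, none was called by limma, and at an unadjusted p under 0.05 the count was 1 (lower; 14.2% of all genes reach that level). Ahr itself is represented by 2 probe sets, both under the median of every array, with log2 fold changes of -0.04 and 0.63 (adjusted p = 0.893 and 0.299 over all probe sets), and Arnt had -0.07 (adjusted p = 0.898), also with low signals. Signals so low do not show whether the amount of Ahr mRNA changed. The largest differences in the list were those of the corepressor Ncor1 (-0.41, adjusted p = 0.744), the remodelling ATPase Smarca4 (0.20, adjusted p = 0.434) and the chaperone Hsp90ab1 (0.13, adjusted p = 0.787), all without a call. Ahrr was not analysed here.

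In the list of NRF2 and its targets 2 of 17 measured were called (1.09% of all genes were), Nqo1 and Nfe2l2 itself, both also in the AHR battery. With the block none of them passed (the median of the 17 was 0.26, against -0.01 for all genes). Of the others, the NADPH-forming enzymes Pgd (1.54, adjusted p = 0.0391) and Me1 (2.21, adjusted p = 0.107) and the sulfiredoxin Srxn1 (0.84, adjusted p = 0.321) had the largest differences. Me1 was at 6.26, 8.81, 8.06 and 7.27 with corn oil and 8.78, 10.51, 9.94 and 10.03 with TCDD, so replicate 2 was the highest in both groups and the groups overlapped slightly. Of the 17 genes of the NRF2 list, 7 were higher and 1 lower at an unadjusted p under 0.05 (limma), against 7.92% and 6.32% of all genes. Of the 18 glutathione S-transferases measured, 1 was called, Gsta3 (1.09% of all genes were called), and none with the block. Gsta4 (0.59, adjusted p = 0.0228), Mgst2 (0.54, adjusted p = 0.116) and Mgst3 (-0.61, adjusted p = 0.0556) were not called, and the median of the 18 was 0.07. At an unadjusted p under 0.05 (limma) 5 of the 18 were higher and 4 lower. No glucuronidation or sulfation gene of 15 measured was called by limma, with 5 lower and 0 higher at an unadjusted p under 0.05 (6.32% and 7.92% of all genes). The largest differences were those of the estrogen sulfotransferase Sult1e1 (-0.69, adjusted p = 0.0135), of Ugp2, which makes UDP-glucose (-0.44, adjusted p = 0.291), and of the glucuronosyltransferase Ugt2b (-0.38, adjusted p = 0.608). Members of these enzyme families are alike in sequence, and whether their probes bind each other's transcripts was not tested.

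Genes outside the AHR battery rose by large amounts as well. Stk24, a kinase of the STE20 family, went from 4.85, 3.43, 2.53 and 3.85 to 7.04, 7.25, 8.07 and 7.16 (log2 fold change 3.72 with a standard error of 0.48, adjusted p = 0.0085, 0.063 with the block). Tmem150c, a membrane protein, rose from 5.15, 5.11, 4.69 and 3.77 to 8.16, 7.59, 7.71 and 7.80 (log2 fold change 3.14 with a standard error of 0.31, adjusted p = 0.00311, 0.0231 with the block). Pla2g12a, a secreted phospholipase A2, had 4.44, 4.81, 3.95 and 4.21 with corn oil and 6.88, 7.24, 7.65 and 6.88 with TCDD (log2 fold change 2.81 with a standard error of 0.23, adjusted p = 0.0016, 0.0244 with the block). These had low signals in the controls, and the controls were spread more widely than the TCDD rats in Stk24 and Tmem150c. The call of Pla2g12a did not need any array, that of Stk24 needed every array but corn oil replicate 1 (up to 0.03 without 1) and that of Tmem150c every array but corn oil replicates 1, 2 and 4 (up to 0.0158 without 1).

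Pkdcc, a secreted tyrosine kinase, was among the least variable: the 4 corn oil rats lay between 7.69 and 7.74 and the TCDD rats at 10.01, 10.13, 10.32 and 10.41 (log2 fold change 2.51 with a standard error of 0.09, adjusted p = 1.8e-05, 0.00472 with the block). Exoc3, a subunit of the exocyst that tethers secretory vesicles, rose from 7.06, 7.07, 7.41 and 7.41 to 9.63, 9.40, 9.89 and 9.58 (log2 fold change 2.39 with a standard error of 0.13, adjusted p = 0.000202, 0.0045 with the block). It has 3 probe sets, and the other two gave 2.70 and 2.32. Selenbp1, a methanethiol oxidase, rose 3.73-fold, from 10.33, 10.66, 10.62 and 10.47 to 12.30, 12.28, 12.47 and 12.62 (log2 fold change 1.90 with a standard error of 0.10, adjusted p = 0.000193, 0.0107 with the block). Eml4, which binds microtubules (1.74, adjusted p = 0.000416, 0.00182 with the block), Mospd3 (1.59, adjusted p = 0.000193, 0.00472 with the block), the glutaredoxin Glrx (1.44, adjusted p = 0.00144, 0.00182 with the block), Pold4, a DNA polymerase subunit (0.996, adjusted p = 0.00144, 0.00912 with the block), and Ddb2, which binds damaged DNA (1.39, adjusted p = 0.00284, 0.00472 with the block), passed in both fits. The last 5 were chosen for that after their values were seen. Of the genes of this paragraph the call needed an array only in Ddb2, namely every array but corn oil replicates 1 and 3 and TCDD replicate 4 (up to 0.0128 without 1), and a second, dimmer probe set of Ddb2 gave -0.04.

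Slc17a1 encodes a sodium-coupled anion transporter of the hepatocyte and kidney. It had 7.92, 7.47, 7.82 and 7.32 in the corn oil rats and 9.55, 10.01, 9.91 and 9.38 in the TCDD rats (log2 fold change 2.08 with a standard error of 0.18, adjusted p = 0.0022, 0.0178 with the block), a 4.23-fold change, and its call needed corn oil replicates 2 and 3 and TCDD replicate 3 (up to 0.0103 without 1).

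Genes of protein breakdown had mostly higher signals with TCDD, by small amounts. Of 47 proteasome subunits and ubiquitin enzymes measured 8 rose and none fell (limma; at an unadjusted p under 0.05 the counts were 30 higher and 2 lower, against 7.92% and 6.32% of all genes), 42 had a log2 fold change above 0, and the median was 0.28 against -0.01 for all genes. Fbxo31, the substrate receptor of a ubiquitin ligase, went from 7.98, 7.88, 7.81 and 7.96 to 9.76, 9.96, 9.85 and 9.60 (log2 fold change 1.89 with a standard error of 0.08, adjusted p = 7.12e-05, 0.0107 with the block). Ube4b, which extends ubiquitin chains, went from 7.09, 6.87, 7.32 and 7.27 to 8.87, 8.98, 8.93 and 8.85 (log2 fold change 1.77 with a standard error of 0.10, adjusted p = 0.000223, 0.0119 with the block). These were the only members that rose by more than 1, and neither call needed any array.

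The 6 other called members moved by 0.39 to 0.52. Psmc5, an ATPase of the proteasome cap, was at 8.97, 8.90, 8.77 and 8.93 with corn oil and 9.44, 9.39, 9.52 and 9.29 with TCDD (log2 fold change 0.51 with a standard error of 0.06, adjusted p = 0.00757, 0.0545 with the block). The core subunits Psma2 (0.52, adjusted p = 0.00925, 0.042 with the block) and Psmb1 (0.46, adjusted p = 0.00907, 0.0195 with the block), the cap subunits Psmd4 (0.44, adjusted p = 0.0085, 0.0431 with the block) and Psmd11 (0.39, adjusted p = 0.0085, 0.0647 with the block) and the ubiquitin-activating enzyme Uba1 (0.49, adjusted p = 0.00907, 0.0173 with the block) rose by similar amounts. Psma2, Psmb1, Psmd4 and Uba1 were named after their values were seen. Psma5 (0.58, adjusted p = 0.0129), Psma4 (0.57, adjusted p = 0.14) and Psmb5 (0.51, adjusted p = 0.1) were not called, though Psmb5 passed without TCDD replicate 4 (0.00642). Every one of the 6 small calls needed at least 7 of the arrays (adjusted p up to 0.0394 without 1), Psma2 all but TCDD replicate 4, Psmd4 all but TCDD replicate 3 and Uba1 all but corn oil replicate 4. With the block no member of the list passed, and the dimmer probe set of Psmd11 gave 0.10 (adjusted p = 0.893 over all probe sets).

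**Figure D3:**
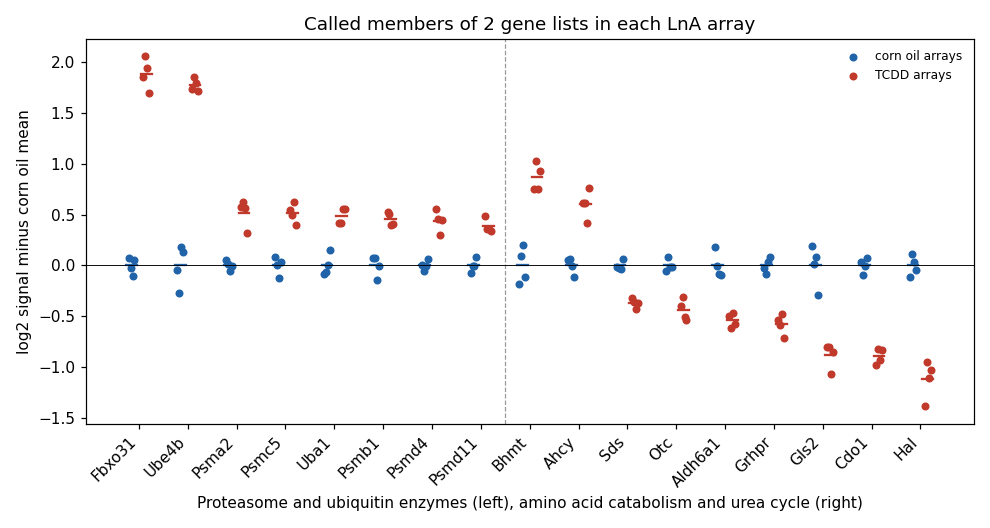
Log2 signal minus the mean of the corn oil arrays (vertical axis) in each corn oil array (blue) and TCDD array (red) of LnA liver, for the called members of 2 gene lists, with a line at each group mean. The 8 proteasome and ubiquitin genes lie above 0 with TCDD, and of the 9 amino acid genes Bhmt and Ahcy lie above and the other 7 below.

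Among enzymes of amino acid breakdown and the urea cycle more were called lower than higher. Of 48 measured, 7 were called lower, Sds with low signals among them, and 2 higher (23 lower and 5 higher at an unadjusted p under 0.05, against 6.32% and 7.92% of all genes). The groups did not overlap in 19 lower and 3 higher (427 and 502 of all 10411 genes), and the median was -0.24. Cdo1, cysteine dioxygenase, fell from 13.87, 13.75, 13.83 and 13.91 to 12.86, 13.02, 12.91 and 13.01 (log2 fold change -0.89 with a standard error of 0.05, adjusted p = 0.000323, 0.0127 with the block), and its call did not need any array. Hal, which starts the breakdown of histidine, fell from 10.44, 10.66, 10.58 and 10.50 to 9.16, 9.60, 9.44 and 9.52 (log2 fold change -1.12 with a standard error of 0.10, adjusted p = 0.00219, 0.0112 with the block) with a call that needed corn oil replicate 3 and TCDD replicate 3 (up to 0.0137 without 1). Gls2, the liver glutaminase, fell from 11.31, 11.14, 11.21 and 10.83 to 10.32, 10.33, 10.05 and 10.27 (log2 fold change -0.88 with a standard error of 0.11, adjusted p = 0.008, 0.0431 with the block). Grhpr, a glyoxylate reductase, fell by 0.58 (adjusted p = 0.00422, 0.0365 with the block). The urea cycle enzyme Otc (-0.44, adjusted p = 0.00922, 0.0275 with the block) and Aldh6a1, of valine breakdown (-0.54, adjusted p = 0.00821, 0.0352 with the block), fell less, and a second probe set of Aldh6a1 gave -0.28. Sds, serine dehydratase, was called lower (-0.37, adjusted p = 0.00328, 0.0266 with the block), with mean signals of 3.25 and 2.88 that both lay under the median of every array, so that, as for Ahr, they do not show whether its mRNA changed. In 1 fit over 32 arrays Sds had an adjusted p of 0.916. Grhpr needed every array but TCDD replicates 3 and 4 (up to 0.0194 without 1), and the calls of Gls2, Otc, Aldh6a1 and Sds needed 7 or all 8 arrays (up to 0.0363 without 1). Those of Gls2 and Sds did without corn oil replicate 4 and that of Aldh6a1 without corn oil replicate 1.

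The members that rose were the methionine cycle enzymes Bhmt and Ahcy. Bhmt, which remethylates homocysteine, went from 11.97, 12.25, 12.36 and 12.04 to 12.91, 13.18, 12.91 and 13.08 (log2 fold change 0.86 with a standard error of 0.10, adjusted p = 0.0073, 0.0335 with the block), and Ahcy, which forms homocysteine, from 12.07, 12.08, 12.00 and 11.89 to 12.63, 12.63, 12.42 and 12.77 (log2 fold change 0.60 with a standard error of 0.08, adjusted p = 0.00863, 0.0526 with the block). The call of Bhmt needed every array (adjusted p up to 0.0253 without 1) and that of Ahcy every array but TCDD replicate 3 (up to 0.0351 without 1). Inmt, which N-methylates tryptamine and like amines, had the widest gap in the list without a call, with 8.17, 9.75, 9.02 and 8.65 in the corn oil rats and 5.54, 6.88, 4.93 and 5.26 in the TCDD rats (log2 fold change -3.25 with a standard error of 0.49, adjusted p = 0.0136, 0.0222 with the block). It passed without TCDD replicate 2 (0.00861), the highest of the TCDD rats. Aass, of lysine breakdown (-1.55, adjusted p = 0.0656), and Tat, tyrosine aminotransferase (1.20, adjusted p = 0.114), were not called. Gls2, Otc, Aldh6a1, Ahcy and Bhmt were named after their values were seen, and with the block the list kept no call.

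Of 30 genes of glucose metabolism 3 were called lower and 1 higher (0.355% and 0.73% of all genes), with a median of -0.02. At an unadjusted p under 0.05 (limma) the counts were 7 lower and 4 higher, against 6.32% and 7.92% of all genes. Pc, pyruvate carboxylase, at the entry of gluconeogenesis, fell from 8.97, 8.98, 9.02 and 8.74 to 7.98, 8.10, 8.00 and 7.98 (log2 fold change -0.91 with a standard error of 0.07, adjusted p = 0.00102, 0.0119 with the block), a 1.88-fold change, and its call did not need any array. Slc37a4, which carries glucose 6-phosphate into the endoplasmic reticulum, fell from 10.19, 10.31, 10.18 and 10.29 to 8.94, 9.56, 9.24 and 9.38 (log2 fold change -0.96 with a standard error of 0.12, adjusted p = 0.00864, 0.0266 with the block), needing every array but TCDD replicates 1 and 2 (up to 0.0311 without 1). Sds, with its low signals, is the other one called lower. Ldha, lactate dehydrogenase, rose (0.45, adjusted p = 0.0073, 0.0335 with the block) and needed every array (adjusted p up to 0.0293 without 1). Not called were Slc2a2, the glucose transporter of the hepatocyte (-1.04, adjusted p = 0.0153), with non-overlapping groups, and Pdk4, an inhibitor of pyruvate dehydrogenase (1.15, adjusted p = 0.0277), which passed without TCDD replicate 1 (0.00931).

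Of 31 genes of bile acid synthesis and transport measured, 3 fell and none rose (limma; 10 lower and 3 higher at an unadjusted p under 0.05, against 6.32% and 7.92% of all genes), with a median of -0.12. The 3 are carriers that take bile acids and other organic anions from the blood into the hepatocyte. Slco1a1 was at 9.81, 10.18, 10.06 and 10.40 with corn oil and 8.92, 8.93, 9.05 and 8.85 with TCDD (log2 fold change -1.17 with a standard error of 0.12, adjusted p = 0.00336, 0.0321 with the block). Slco1a4 was at 10.71, 11.42, 11.16 and 11.27 and 9.57, 10.12, 9.74 and 9.45 (log2 fold change -1.42 with a standard error of 0.19, adjusted p = 0.00933, 0.0231 with the block), and its second probe set gave -1.64. Slc10a1, the sodium-dependent bile acid carrier, fell from 12.65, 12.84, 12.90 and 12.87 to 11.99, 12.24, 12.24 and 12.08 (log2 fold change -0.67 with a standard error of 0.08, adjusted p = 0.00668, 0.0127 with the block). The calls of Slco1a4 and Slc10a1 needed every array but corn oil replicate 1 (up to 0.0394 and 0.0264), that of Slco1a1 every array but corn oil replicates 1 and 4 (up to 0.0159 without 1), and with the block none of the 3 passed.

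The bile acid enzymes gave no call. Cyp7a1, the rate-limiting enzyme of bile acid synthesis, had 8.67, 10.20, 9.44 and 7.43 with corn oil and 8.77, 9.15, 2.45 and 7.74 with TCDD, so that 1 TCDD rat (replicate 3) lay more than 5 below the others of its group (-1.91, adjusted p = 0.756). Nr0b2, the repressor SHP, had 6.33, 7.28, 5.57 and 4.44 with corn oil and 4.10, 3.72, 3.65 and 3.73 with TCDD (-2.10, adjusted p = 0.1). Slc27a5, which activates bile acids, had non-overlapping groups without a call (-0.73, adjusted p = 0.14).

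Few lipid genes were called. In peroxisomal oxidation 8 of 25 measured were lower and 3 higher at an unadjusted p under 0.05 (limma), against 6.32% and 7.92% of all genes. Of the 25, 1 was called higher and 1 lower (1.09% of all genes were called), and both act in the alpha-oxidation of branched fatty acids. Phyh, which hydroxylates phytanoyl-CoA, rose from 12.02, 12.14, 12.33 and 12.18 to 12.96, 13.01, 13.03 and 13.17 (log2 fold change 0.87 with a standard error of 0.07, adjusted p = 0.00197, 0.014 with the block), and its call did not need any array. Hacl1, the lyase of the next step, fell from 8.97, 9.61, 9.48 and 9.81 to 8.00, 8.08, 7.90 and 8.25 (log2 fold change -1.41 with a standard error of 0.17, adjusted p = 0.00773, 0.0231 with the block) and needed every array but corn oil replicate 1 (up to 0.0304 without 1). Of the other peroxisomal genes of the list, Ehhadh (-1.17, adjusted p = 0.0542), Acot4 (-0.81, adjusted p = 0.0535) and Acox3 (-0.71, adjusted p = 0.346) were not called. No gene of 23 of mitochondrial fatty acid oxidation and ketogenesis passed limma's test (4 higher and 5 lower at an unadjusted p under 0.05, against 7.92% and 6.32% of all genes), where the acyl-CoA thioesterase Acot2 (-1.20, adjusted p = 0.0152), Eci1 (-0.47, adjusted p = 0.609) and Mlycd (0.46, adjusted p = 0.0576) had the largest differences. Of 30 of fatty acid synthesis and desaturation none passed limma's test either (8 higher and 3 lower at an unadjusted p under 0.05), among them the elongases Elovl5 (0.84, adjusted p = 0.0447) and Elovl6 (2.34, adjusted p = 0.257). Elovl6 was at 6.08, 10.29, 7.14 and 7.69 in the TCDD rats, widely spread.

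Of 20 genes of cholesterol synthesis and uptake 1 was called (1.09% of all genes were), the lipoprotein receptor Scarb1, which takes cholesterol esters from high-density lipoprotein. It rose from 9.05, 9.19, 9.11 and 8.98 to 9.76, 9.93, 9.96 and 9.87 (log2 fold change 0.80 with a standard error of 0.06, adjusted p = 0.00141, 0.0112 with the block), and its call did not need any array. The synthesis enzymes Acat2 (1.16, adjusted p = 0.0628), Idi1 (-0.88, adjusted p = 0.122) and Sqle (-0.68, adjusted p = 0.394) were not called, and the median of the 20 was -0.14. Mgll, monoacylglycerol lipase, fell from 7.88, 7.83, 7.60 and 7.48 to 6.70, 6.65, 6.13 and 6.74 (log2 fold change -1.14 with a standard error of 0.15, adjusted p = 0.00992, 0.0353 with the block). Its 3 dimmer probe sets gave -0.97, -0.34 and -0.02. TCDD replicate 3 lay lowest in Mgll, whose call needed every array (adjusted p up to 0.0351 without 1).

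Of the 36 P450 genes of families 2 to 4 and their partners measured, 2 fell and 1 rose (11 lower and 5 higher at an unadjusted p under 0.05, against 6.32% and 7.92% of all genes). Cyp3a9 fell from 11.21, 11.35, 10.86 and 10.86 to 9.97, 9.53, 9.32 and 9.82 (log2 fold change -1.41 with a standard error of 0.17, adjusted p = 0.0073, 0.029 with the block) and Cyp3a18 from 12.72, 12.90, 12.69 and 12.79 to 12.07, 12.27, 12.13 and 12.30 (log2 fold change -0.58 with a standard error of 0.07, adjusted p = 0.00695, 0.0131 with the block); both belong to the steroid- and drug-oxidizing CYP3A family. Cyb5a, cytochrome b5, rose (0.36, adjusted p = 0.00773, 0.0491 with the block). Cyp2a1 (0.96, adjusted p = 0.0117), Cyp2j3 (-0.73, adjusted p = 0.0428) and Cyp3a2 (-0.67, adjusted p = 0.14) were not called, each with non-overlapping groups. All 3 calls were lost with the block, those of Cyp3a9 and Cyp3a18 needed every array (up to 0.0233 and 0.0253 without 1) and that of Cyb5a every array but corn oil replicate 4 (up to 0.0308 without 1).

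Lox had the largest fall of the called genes. It encodes lysyl oxidase, which cross-links collagen and elastin, and went from 8.30, 9.40, 8.87 and 8.67 to 6.08, 4.39, 5.10 and 5.52 (log2 fold change -3.54 with a standard error of 0.38, adjusted p = 0.00446, 0.0507 with the block), with a second probe set at -2.38 (adjusted p = 0.00613 over all probe sets). Every TCDD rat lay well below every control. Its call needed every array but corn oil replicate 1 and TCDD replicates 1 and 2 (up to 0.02 without 1). Lurap1l, an adaptor protein, fell from 5.96, 6.10, 6.92 and 6.24 to 4.51, 4.91, 4.55 and 4.22 (log2 fold change -1.76 with a standard error of 0.23, adjusted p = 0.0087, 0.045 with the block). The cyclin-dependent kinase subunit Cks2 (-1.10, adjusted p = 0.00446, 0.0321 with the block), Ankrd28 of a protein phosphatase (-0.92, adjusted p = 0.00662, 0.042 with the block), the protease Ddi2 (-0.92, adjusted p = 0.009, 0.0231 with the block) and the signalling adaptor Shb (-0.90, adjusted p = 0.0073, 0.0131 with the block) fell by about 1. Their calls needed at least 6 arrays each (up to 0.0304 without 1, Lurap1l included). Cks2 did without corn oil replicates 2 and 3, and Shb without corn oil replicate 4.

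In the insulin and IGF axis 1 of 29 members rose and 1 fell (1.09% of all genes were called). Ceacam1, which takes part in the clearance of insulin, rose from 10.27, 10.21, 10.34 and 10.20 to 11.61, 11.60, 11.76 and 11.49 (log2 fold change 1.36 with a standard error of 0.06, adjusted p = 8.1e-05, 0.00214 with the block), with 1.81 on a second probe set, and its call did not need any array. Ghr, the growth hormone receptor, fell from 11.55, 11.50, 11.55 and 11.41 to 10.77, 10.93, 10.91 and 10.74 (log2 fold change -0.67 with a standard error of 0.06, adjusted p = 0.00197, 0.0131 with the block) and needed corn oil replicate 3 (up to 0.0128 without 1). Igfbp3 (-1.11, adjusted p = 0.0175) and Igfbp1 (1.99, adjusted p = 0.251), which bind IGF in plasma, and Socs2, a brake on growth hormone signalling (-0.77, adjusted p = 0.713), were not called. Among acute-phase and coagulation proteins 1 of 29 was called (1.09% of all genes were), coagulation factor F5, which rose (0.51, adjusted p = 0.00673, 0.0543 with the block) and needed every array (adjusted p up to 0.0265 without 1). The list leaned the other way, with a median of -0.11. At an unadjusted p under 0.05 (limma) 10 of the 29 were lower and 1 higher, against 6.32% and 7.92% of all genes. Lbp (-0.92, adjusted p = 0.0761), Apcs (-0.66, adjusted p = 0.0629) and Hamp, the iron hormone hepcidin (-1.24, adjusted p = 0.125), were lower with no overlap and no call.

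In retinoid and alcohol metabolism 2 of 24 rose (0.73% of all genes did), Aldh3a1 and Aldh7a1 (0.39, adjusted p = 0.00773, 0.039 with the block). The call of Aldh7a1 needed every array (adjusted p up to 0.0304 without 1). Aldh1a1 (-1.65, adjusted p = 0.383) and Adh4 (-0.61, adjusted p = 0.898) were not called. Of 48 subunits of the respiratory chain and ATP synthase, Uqcrc1 of complex III was called (0.35, adjusted p = 0.00907, 0.0187 with the block) and needed every array (adjusted p up to 0.038 without 1). In that list 39 members had a log2 fold change above 0, none was lower and 16 were higher at an unadjusted p under 0.05 (6.32% and 7.92% of all genes), and the median was 0.13. Atp5f1c (0.44, adjusted p = 0.0113), Cyc1 (0.38, adjusted p = 0.0912) and Cox5a (0.53, adjusted p = 0.128) were not called.

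No member was called by limma in 5 further lists. At an unadjusted p under 0.05 there were 9 higher and 2 lower of 33 for endoplasmic reticulum folding and degradation (Xbp1 0.63, adjusted p = 0.398), 1 and 3 of 16 for the circadian clock, 3 and 3 of 38 for cell cycle and DNA damage, 2 and 3 of 16 for heme synthesis and iron, and 3 and 7 of 32 for hepatocyte transcription factors and nuclear receptors, where 7.92% of all genes were higher and 6.32% lower. Per2 had non-overlapping groups, with 6.07, 5.63, 6.14 and 3.38 with corn oil and 8.20, 8.04, 8.06 and 7.45 with TCDD (2.63, adjusted p = 0.0666). Gadd45a, a growth arrest gene, was at 5.998, 5.75, 6.73 and 7.18 and 7.56, 8.51, 10.02 and 8.89 (2.33, adjusted p = 0.0711). Other members with large differences were the clock genes Bhlhe40 (-0.99, adjusted p = 0.25) and Nr1d2 (-0.36, adjusted p = 0.8), Klf10 (-1.29, adjusted p = 0.322), Egr1 (2.05, adjusted p = 0.494), Onecut1 (-0.96, adjusted p = 0.898), Hmox1 (-0.78, adjusted p = 0.209), Slc40a1 (-0.65, adjusted p = 0.122), Nr3c1 (-0.96, adjusted p = 0.0473), Sec61g (0.47, adjusted p = 0.0531) and Ddit3 (-0.47, adjusted p = 0.775).

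**Figure D4:**
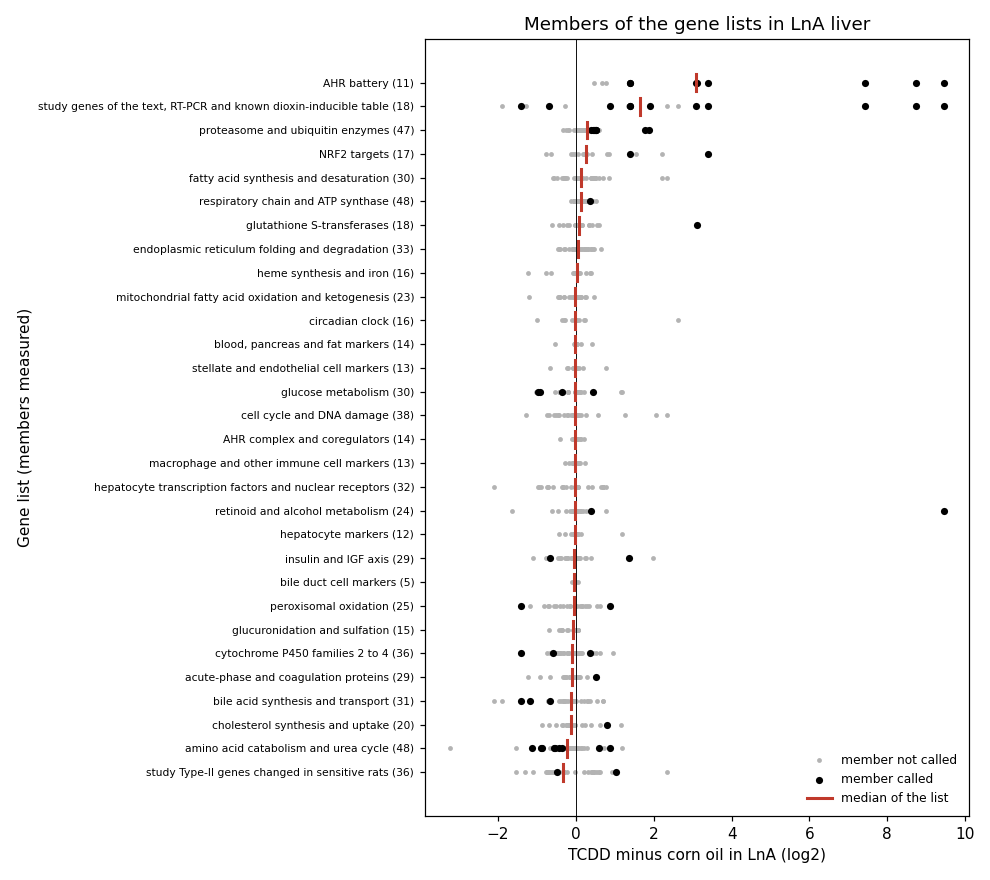
Log2 fold change in LnA liver (horizontal axis) of each measured member of the gene and marker lists (vertical axis, with the number measured), black where called and grey where not, and a red line at the median of the list. The AHR battery stands to the right (median 3.08), whereas the medians of the marker lists lie near 0.

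No member of the 5 marker lists was called by limma. At an unadjusted p under 0.05 there were 1 higher and 2 lower hepatocyte markers, 1 higher and 2 lower stellate and endothelial cell markers and 0 in the other lists, where 7.92% of all genes were higher and 6.32% lower. Bile duct markers averaged 3.18 to 3.30 in the corn oil arrays and 3.14 to 3.27 in the TCDD arrays, stellate and endothelial cell markers 5.21 to 5.30 and 5.20 to 5.33, macrophage and immune cell markers 5.52 to 5.64 and 5.47 to 5.68, and blood, pancreas and fat markers 4.01 to 4.22 and 4.05 to 4.20 (log2, 5, 13, 13 and 14 members). Hepatocyte markers, albumin (Alb) and transthyretin (Ttr) among them, averaged 13.95 to 14.02 and 13.85 to 14.13 over 12 members, far above the array medians. Cyp2e1 (-0.44, adjusted p = 0.287) and Cps1 (-0.27, adjusted p = 0.0756) had the largest differences there next to Tat. The bile duct keratins Krt7 (0.06, adjusted p = 0.898) and Krt19 (-0.05, adjusted p = 0.875) lay under the median of every array in both groups, and Epcam was not called (-0.10, adjusted p = 0.794). The endothelial genes Eng (-0.68, adjusted p = 0.074) and Kdr (-0.22, adjusted p = 0.0543) were lower without overlap, and the immune genes Cd14 (-0.28, adjusted p = 0.554), Cd68 (0.23, adjusted p = 0.618) and S100a9 (-0.19, adjusted p = 0.834) overlapped, as did the pancreas gene Cela1 (-0.55, adjusted p = 0.463) and the red cell genes Hbb (0.41, adjusted p = 0.645) and Alas2 (0.12, adjusted p = 0.905). The part of other cells in the results was not tested. In whole liver, fewer cells of a type and less RNA per cell cannot be told apart.

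Of the 18 genes that the study takes up in its text, its RT-PCR and its list of known dioxin-inducible genes, 9 rose and 2 fell in LnA liver. A part of these genes was chosen by the study on these samples, so the count is not independent evidence. Of those not yet named, Crip2, a LIM domain protein, fell (-0.70, adjusted p = 0.00992, 0.0512 with the block) and needed every array (adjusted p up to 0.0411 without 1), and Chka, choline kinase, was at 8.29, 7.65, 8.53 and 8.36 with corn oil and 9.71, 9.74, 10.91 and 10.10 with TCDD without a call (log2 fold change 1.91 with a standard error of 0.30, adjusted p = 0.0173, 0.0253 with the block). Il1r1, the interleukin-1 receptor, had no overlap and no call (1.35, adjusted p = 0.0799), and Pik3r1 had low signals in both groups (-0.28, adjusted p = 0.606). A second, dimmer probe set of Il1r1 gave 0.33 (adjusted p = 0.0197 over all probe sets). The study calls Type-II the genes that changed in both sensitive or in both resistant lines of this series and in neither of the others. Those of the sensitive rats alone, again chosen on these samples, gave 1 higher and 1 lower call of 36 measured. Over all genes 1.09% were called. Without overlap were 10 higher and 14 lower, against 502 and 427 of all 10411 genes, and the median was -0.32. Tc2n rose from 4.63, 4.95, 4.82 and 4.63 to 5.74, 5.76, 6.05 and 5.61 (log2 fold change 1.04 with a standard error of 0.11, adjusted p = 0.00466, 0.019 with the block), and Adk, adenosine kinase, fell from 12.09, 11.92, 11.95 and 11.81 to 11.44, 11.52, 11.43 and 11.42 (log2 fold change -0.49 with a standard error of 0.06, adjusted p = 0.00775, 0.0393 with the block). Tc2n needed every array but TCDD replicates 3 and 4 (up to 0.0197 without 1) and Adk every array but corn oil replicate 4 (up to 0.0308 without 1). The Type-II genes of the resistant rats, Il1r1, Phyh and Hacl1, are not in that list, and their values are given with the study's genes and with peroxisomal oxidation. Egf (-1.32, adjusted p = 0.0655) and B4galnt1 (-1.54, adjusted p = 0.168) were lower with no overlap and no call.

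On the same probe sets 117 genes were called in LnC (1.12%), 44 in H/W (0.423%) and 214 in L-E (2.06%). All L-E TCDD arrays were washed on station 2 and all L-E corn oil arrays on station 1, so station and treatment cannot be told apart there. In H/W all arrays but corn oil replicate 3 were on station 1. LnC was split as LnA was. The arrays of L-E, and those of H/W, were not all scanned on the same day. Called in the same direction in LnA were 38 of the LnC genes (33.6% of the LnA and 32.5% of the LnC calls), 23 of the H/W genes (20.4% and 52.3%) and 50 of the L-E genes (44.2% and 23.4%), and no gene was called in opposite directions. The sign of the log2 fold change was that of LnA in 112 of the 113 genes in LnC, 108 in H/W and 112 in L-E. The share of all genes with the same sign was not computed, so the counts of shared signs here have no background beside them. Called in all 4 were 15 genes, of which 13 rose (Aldh3a1, Ceacam1, Csk, Cyp1a2, Cyp1b1, Eml4, Exoc3, Fam8a1, Fbxo31, Nqo1, Pkdcc, Tiparp and Ube4b) and 2 fell (Grhpr and Slco1a1). Of the 53 called in LnA and in no other, 46 had the same sign in all 4, and a call in 1 line does not show that the lines differ.

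The response itself was compared by the difference of the differences in 16 arrays. It was larger or smaller in LnA than in LnC for 8 genes (0.0768%, 495 at an unadjusted p under 0.05), of which 4 had the higher value in LnA. Slc17a1 rose in LnA and had 0.04 in LnC (difference 2.05, standard error 0.26, adjusted p = 0.00441), with 1.49 in H/W and 0.17 in L-E. For Gsta3 the values were 3.11 in LnA, 0.13 in LnC, 1.16 in H/W and 0.16 in L-E (difference from LnC 2.98, standard error 0.41, adjusted p = 0.00773). Lox fell in LnA (-3.54) and had -3.50 in L-E, -1.06 in H/W and -0.0022 in LnC (difference -3.53, standard error 0.42, adjusted p = 0.00407). C20h6orf136 had 0.47 in LnA and -0.50 in LnC (difference 0.97, adjusted p = 0.00479), and Litaf, of late endosomes and lysosomes, had -0.18 and -0.80 (difference 0.62, adjusted p = 0.00773).

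Sebox, Cyfip2 and Vxn were called in LnC and not in LnA. Sebox, a homeobox gene, had 0.27 in LnA and 2.09 in LnC (difference -1.82, standard error 0.17, adjusted p = 0.000676). Cyfip2, a regulator of actin, had 0.11 and 2.19 (difference -2.07, adjusted p = 0.00404), and Vxn 0.41 and 2.89 (difference -2.48, adjusted p = 0.00441). Signals of Cyfip2 and Vxn in the LnA corn oil rats were under the median of every array. Only Sebox passed without any 1 of the 16 arrays. The other 7 were each lost without 6 to 14 of them (adjusted p up to 0.0296), and with the replicate number within each line as a block no gene passed (583 at an unadjusted p under 0.05; Sebox at 0.0416). In 1 fit over the 32 arrays of 19 h Sebox, Cyfip2 and Slc17a1 passed and the other 5 did not, with an adjusted p of 0.744 for Lox and 0.995 for C20h6orf136.

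Against H/W, the other line with the shortened AHR, the response differed for 1 gene (0.00961%, 521 at an unadjusted p under 0.05). Wac-ps1, by its symbol a pseudogene of Wac, was at 8.02, 7.89, 7.94 and 7.90 in the LnA corn oil rats and 7.42, 7.28, 7.38 and 7.40 in the TCDD rats (log2 fold change -0.57 with a standard error of 0.05, adjusted p = 0.00144, 0.0119 with the block) and had 0.46 in H/W (difference -1.03, standard error 0.12, adjusted p = 0.00651). That difference was lost without 12 of the 16 arrays (up to 0.0297), among them all 8 of LnA, and with the block (0.377). By order of p, Fam8a1 came next, a factor of protein degradation in the endoplasmic reticulum that rose in LnA (1.24, adjusted p = 0.000622, 0.0195 with the block) and had 2.42 in H/W, 2.51 in LnC and 2.75 in L-E, with a difference from H/W of -1.18 (adjusted p = 0.0422) and from LnC of -1.26 (adjusted p = 0.0405). Rtn4ip1 (1.03, adjusted p = 0.0645), Xiap (-1.98, adjusted p = 0.109) and Actn4 (0.35, adjusted p = 0.109) followed without a call, and a second probe set of Rtn4ip1 gave a log2 fold change of -0.01 in LnA. LnA and H/W were scanned on separate days, so scan day and line are not separable, whereas the TCDD and corn oil arrays of LnA share 1 day with each other and with LnC.

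**Figure D5:**
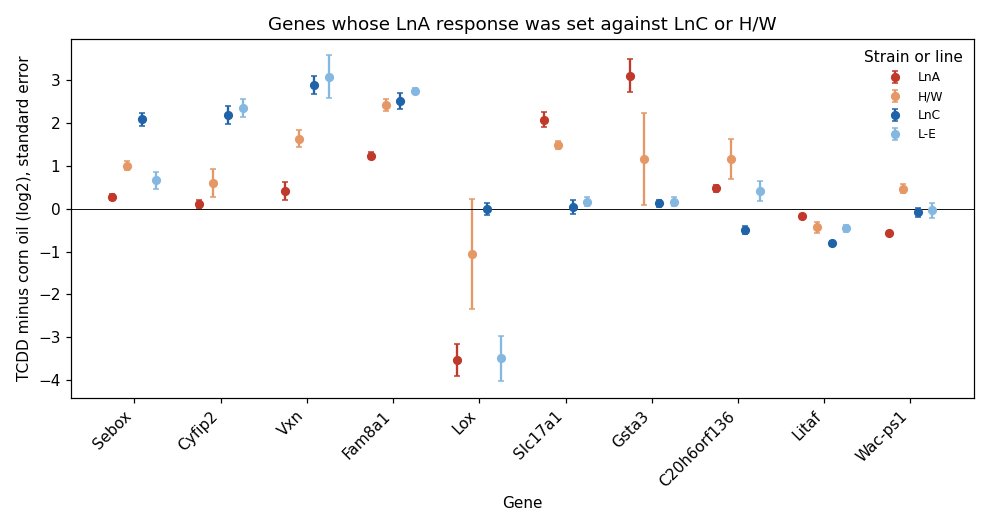
Log2 fold change with its standard error (vertical axis) in LnA (red), H/W (orange), LnC (blue) and L-E (light blue) for the 8 genes whose response differed between LnA and LnC, for Wac-ps1, which differed between LnA and H/W, and for Fam8a1. Sebox, Cyfip2 and Vxn lie lower in LnA than in LnC, and Slc17a1 and Gsta3 higher.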

How the data were processed

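Liver RNA of 8 LnA rats was hybridised to Affymetrix RAE230A arrays. The log2 values were used as deposited by the authors, who list R 2.3.1 with affy 1.10.0 and GCRMA 2.4.1 in their processing notes, whereas the methods of the study describe RMA with other probe set definitions. GCRMA corrects the background, normalizes the arrays and summarizes the probes of a set; it compresses low signals to a floor. Of 15866 probe sets without controls, 12783 have 1 gene symbol, and for each of 10411 genes the set of highest mean signal in the 8 arrays was used. No sample column was left unused (0).

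TCDD and corn oil were compared with limma 3.58.1 in R 4.3.3 (lmFit, eBayes), called at an adjusted p under 0.01 (Benjamini-Hochberg). Differences of response between lines were interaction terms in 16 arrays each. The script was tested on simulated data. Figures were drawn with matplotlib 3.10.9. The number of arrays limits the precision. The p-values measure the spread between rats, each array being 1 rat.

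Neither labels nor methods say that replicate numbers pair rats. Over 1252 genes with a variance above 0.1, deviations from the group means correlated between arrays of the same number with r of 0.175, 0.157, 0.114 and 0.155, all above 0.1. The calls come from the fit without the block, so they leave any such pairing out of account. TCDD replicate 3 correlated best with corn oil replicate 4, and the other 3 TCDD arrays with their own number. Blocked values are printed beside calls.

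Alternatives were other choices of probe set, the lowest 40% of genes left out, limma trend, median centring, array weights, quantile normalization, a test against a log2 change of 0.5, a threshold of 0.05, 1 fit over 32 arrays, the replicate block, leaving out each array and, added after seeing the data, the fluidics station as a block.

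The genes and lists were chosen with earlier results of these data known. Named are the 15 called genes with the largest rise and the 15 with the largest fall, up to 4 called members of each list by p and up to 3 others by size, the study's genes, Ahr, Arnt and Ahrr, and up to 5 genes by p in each difference of response. The genes added after their values were seen are Psma2, Psmb1, Psmd4, Uba1, Otc, Gls2, Ahcy, Bhmt, Aldh6a1, Eml4, Glrx, Ddb2, Mospd3, Pold4, C20h6orf136 and Litaf. Promoters were matched by symbol.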

Additional observations from a re-analysis of the deposited data

Results flagged for a closer look

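In 5 groups of 4 arrays (3.68% of those tested, the 2 groups of each called gene named in the text), 1 array stood far from the other 3, measured by its gap against the range of the group; chance gives about 1 in 20. The corn oil replicate 4 array had an Aldh3a1 signal of 3.32 (log2), and the others 2.62 to 2.72. Cyp1a2 was 13.76 in corn oil replicate 2 and 14.18 to 14.22 in the others. Psmd11 was 10.75 in TCDD replicate 1 and 10.6 to 10.62 in the others. Mgll was 6.13 in TCDD replicate 3 and 6.65 to 6.74 in the others, and Pc was 8.74 in corn oil replicate 4 and 8.97 to 9.02 in the others.

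The response of 9 genes differed between lines by the interaction term (limma, adjusted p under 0.01). The log2 fold change in LnA minus that in LnC was 2.98 for Gsta3, 2.05 for Slc17a1, 0.97 for C20h6orf136, 0.62 for Litaf, -1.82 for Sebox, -2.07 for Cyfip2, -2.48 for Vxn and -3.53 for Lox. In LnA minus H/W it was -1.03 for Wac-ps1.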

How the results depend on the processing

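Against 113 genes called in LnA, 59 were called after quantile normalization, 62 after median centring, 185 with array weights, 11 in the test against a log2 change of 0.5, 336 at a threshold of 0.05, 199 in 1 fit over 32 arrays, 11 with the replicate block and 14 with the fluidics station as a block (chosen after seeing the data). Without 1 array the count was 26 to 60, lowest without corn oil replicate 3 and highest without corn oil replicate 1. For LnA minus LnC, against 8 genes, 14 were called at 0.05, 0 with the replicate block (limma; 583 at an unadjusted p under 0.05) and 1 to 10 without 1 array. For LnA minus H/W, against 1 gene, 2 were called at 0.05, 0 with limma trend (459 at an unadjusted p under 0.05), 0 in the fit over 32 arrays (620), 0 with the replicate block (708) and 0 to 2 without 1 array. In the fit over 32 arrays 7 genes were called for LnA minus LnC, 3 of the 8 among them. The cause was not tested in any of these.

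Genes without a call changed sign as follows. Ahr had a log2 fold change of 0.29 with the mean of its probe sets, 0.63 with the probe set highest over 32 arrays and 0.0056 with array weights. With array weights Onecut1 had 0.12 and Alas2 -0.28, and with the station block Ugp2 had 0.052, Socs2 0.026, Onecut1 0.27 and Alas2 -0.19. Without 1 array Arnt had -0.16 to 0.0018, Xiap -0.31 to 0.094, Onecut1 -2.03 to 0.25 and Alas2 -0.027 to 0.42. No called gene named in the text changed sign.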
